A study of Mus musculus with 6 samples.

Results

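The genes described here belong to the readout of YAP, the growth-controlling coactivator of the Hippo pathway. They are 6 genes known as targets of YAP (Ccn1, Ccn2, Ankrd1, Amotl2, Ajuba and Lats2), Yap1 itself and Tead1, which encodes a DNA-binding partner of YAP. Every probe set annotated to 1 of these 8 genes alone was taken, which gave 19 of the 34945 probe sets paired with a single gene symbol, and 8 of 18193 genes. A floor was set at 63.7 signal units, the median of all values without control probe sets. Of the 19, 18 reached it on all 6 arrays, and 1 for Lats2 was under it on all 6. A further probe set is annotated to both Xpo4 and Lats2 and was not used.

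The arrays came from melan-a, an immortal pigment cell line derived from C57BL/6 embryonic melanoblasts, with 1 array per group. All 6 cultures carried delta-BRAF-ER, an activated BRAF kinase whose activity depends on tamoxifen. BRAF was not activated in the first group (BRAF-off) and was activated in the second (BRAF-on). In the other 4 groups it was activated together with ectopic ZEB2, SNAIL2, TWIST1 or ZEB1, and these arrays are called by the added factor. The labels name neither cells given tamoxifen but lacking the construct nor an added factor without activated BRAF, so those effects cannot be told apart. The spread between cultures of a group is unknown, since no group has a second array. No test was run, and a ratio describes 2 arrays. A gene called higher or lower differed by 2-fold or more. The only repeated measurement is that of several probe sets for 1 gene, which share the RNA. Whether their probes overlap was not looked at. All 4 factor comparisons share the single BRAF-on array, so each is also given against BRAF-off where it bears on a result.

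Between 10611 (BRAF-off) and 11269 (ZEB1) genes lay at or above the floor. Of 10 melanocyte markers, 10 lay there on every array except TWIST1, which had 3 (Mitf, Sox10 and Pax3), with Tyr, Tyrp1, Dct, Pmel, Mlana, Kit and Oca2 under the floor. No measured probe set for an added factor was 2-fold higher on its own array than on BRAF-on. Their ratios ran from 0.352 (Snai2 on SNAIL2) to 1.70 (Zeb2 on ZEB2), and probes of this array type need not lie in an introduced sequence, so the labels were neither borne out nor contradicted. The ratio of the 3' to the 5' control probe set lay between 0.792 and 0.839 for Gapdh and between 1.36 and 1.54 for Actb over the 6 arrays. Poly-A control transcripts stood 2.55-fold higher on SNAIL2 than on BRAF-on, by the median of 24 probe sets.

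YAP has no DNA-binding domain and reaches genes through TEAD transcription factors. The Hippo kinases, LATS1 and LATS2 at the end of the cascade, phosphorylate YAP and its relative TAZ and keep them out of the nucleus. Cell spreading, actin tension and low cell density release YAP, and several of its targets, LATS2 and AMOTL2 among them, in turn restrain it. In melanocytes and melanoma YAP and TEAD are known for growth and for the invasive, poorly pigmented state.

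Promoter sequence was looked up for the 8 genes in RefSeq's table for build GRCm38.p6, and 6 were in it (Ccn1, Ankrd1, Amotl2, Ajuba, Lats2 and Yap1). The 250 bases before each annotated start were searched on both strands for GGAATG, the core of the TEAD motif, which reads CATTCC on the other strand. The 6 genes had 7 such windows, since Lats2 has a second start. A match lay in 5 of the 7 (all but those of Lats2), while 12.6% of all 32851 windows of the same length in the table held one. Ankrd1 and Ajuba held 2 matches each. The matches lay 98 to 103 bases before the start in Ccn1, 60 to 65 in Amotl2, 205 to 210 and 118 to 123 in Ankrd1, 159 to 164 and 181 to 186 in Ajuba, and 136 to 141 in Yap1. Shown are the windows of 2 genes far lower on ZEB1 (Ccn1 and Ankrd1) and of 2 targets that also hold the match and stayed within 2-fold (Amotl2 and Ajuba), with the matches in capitals.
Ccn1 (- strand, chr3:145649986-145650235): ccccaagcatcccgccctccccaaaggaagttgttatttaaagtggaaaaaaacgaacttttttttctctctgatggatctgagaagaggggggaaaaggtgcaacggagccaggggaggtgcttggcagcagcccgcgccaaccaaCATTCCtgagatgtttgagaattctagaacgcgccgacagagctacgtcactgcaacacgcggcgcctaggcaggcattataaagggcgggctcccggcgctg
Ankrd1 (- strand, chr19:36119845-36120094): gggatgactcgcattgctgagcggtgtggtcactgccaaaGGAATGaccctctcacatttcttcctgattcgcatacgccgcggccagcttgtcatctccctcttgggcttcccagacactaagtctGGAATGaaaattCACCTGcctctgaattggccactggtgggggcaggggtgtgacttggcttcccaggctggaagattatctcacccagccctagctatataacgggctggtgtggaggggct
Amotl2 (+ strand, chr9:102717554-102717803): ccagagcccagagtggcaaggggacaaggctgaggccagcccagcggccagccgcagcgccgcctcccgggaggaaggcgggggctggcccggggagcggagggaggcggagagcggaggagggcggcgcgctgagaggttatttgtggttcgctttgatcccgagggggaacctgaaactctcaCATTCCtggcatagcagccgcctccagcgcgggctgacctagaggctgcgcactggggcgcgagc
Ajuba (- strand, chr14:54577662-54577911): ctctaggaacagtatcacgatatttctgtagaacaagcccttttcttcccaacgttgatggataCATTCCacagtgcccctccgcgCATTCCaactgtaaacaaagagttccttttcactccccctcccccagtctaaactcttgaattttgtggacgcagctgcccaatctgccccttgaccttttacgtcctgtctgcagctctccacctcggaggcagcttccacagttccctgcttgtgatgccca
In Ankrd1 the capitals mark also CACCTG, 106 to 111 bases before the start, the other strand of the E-box CAGGTG that ZEB and SNAIL factors bind. That E-box was found in 2 of the 7 windows (Ankrd1 and 1 of Lats2) and in 17.2% of all windows. The AP-1 motif TGANTCA, found in 6.75% of all windows, and the CArG box of SRF, found in 1.47%, had no match in any of the 7. A match is a string of letters and was not tied to binding here.

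The largest differences of the 8 genes were seen on ZEB1. Ccn1, Ccn2 and Ankrd1 were at least 2-fold lower there than on BRAF-on, 3 of 8 genes, against 3.93% of all 11614 genes entered in that comparison. No member was 2-fold higher, where 4.49% of all genes were. The other targets were also lower but within 2-fold, and Yap1 was slightly higher. The median log2 ratio was -0.49 over the 8 genes and 0.07 over all genes. Among genes at or above 476 signal units (the 75th percentile of all values) on at least 1 of the 2 arrays, a level all 8 members reached, 3.09% of 7515 were 2-fold lower and 2.55% higher. ZEB1 was the lowest of the 6 arrays for 7 of the 8 genes and for 15 of their 18 measured probe sets. Among all genes at or above the floor on every array, 22.3% of 9937 had their lowest signal there.

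**Figure D1:**
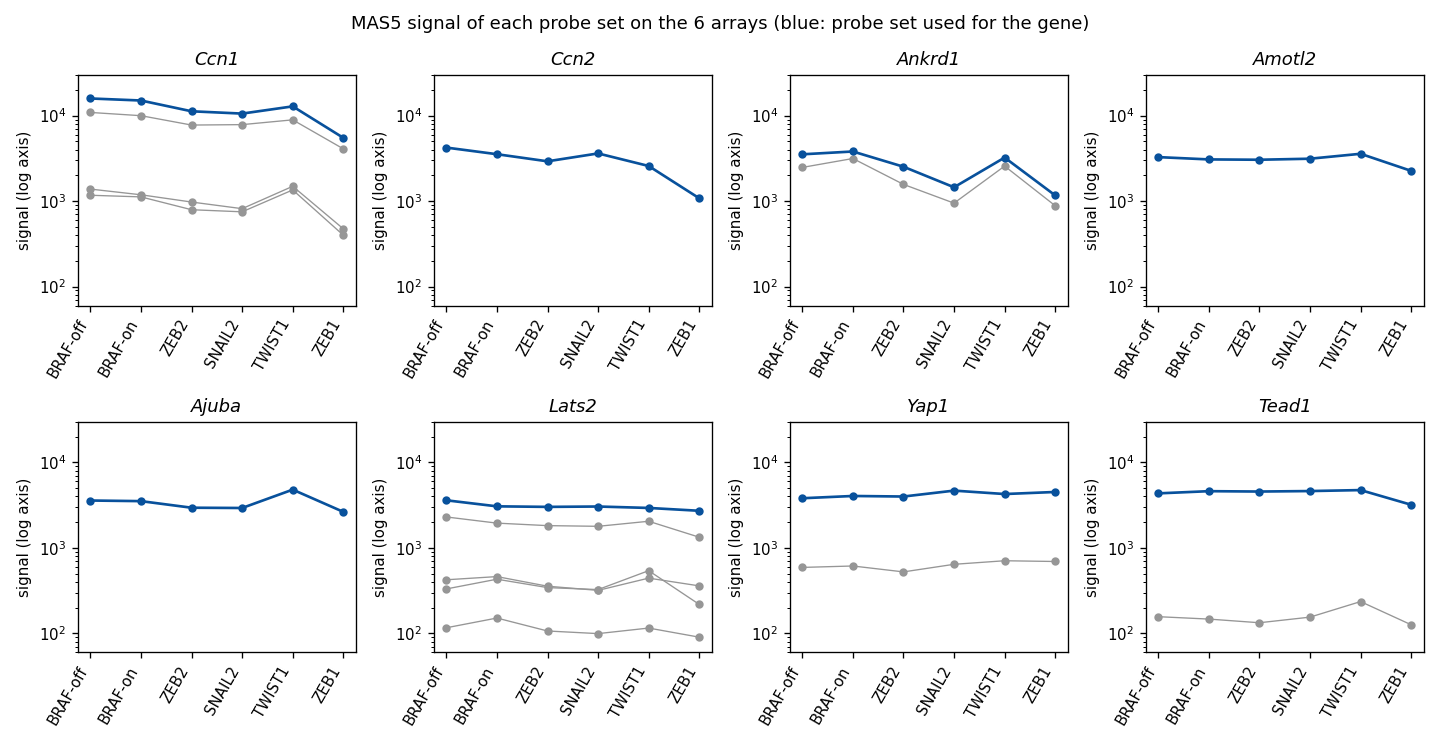
Deposited signal (log axis) of the 18 measured probe sets of the 8 genes on the 6 arrays, with the probe set used for each gene in blue and the others in grey, and lines that only join the points of a probe set. Every probe set of Ccn1, Ccn2 and Ankrd1 has its lowest point on ZEB1, and Ankrd1 is also low on SNAIL2.

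Ccn1 (earlier Cyr61) and Ccn2 (earlier Ctgf) encode secreted matricellular proteins of the CCN family, which bind integrins and growth factors in the matrix. They are the most used readouts of YAP activity. The probe set used for Ccn1 gave a signal of 15856 on BRAF-off, 15011 on BRAF-on, 11229 on ZEB2, 10552 on SNAIL2, 12819 on TWIST1 and 5496 on ZEB1. The 2 controls were thus close together, ZEB2 and SNAIL2 somewhat lower, and ZEB1 alone at a far lower level. Its log2 ratio of ZEB1 to BRAF-on was -1.45, a 2.73-fold lower signal, and 129 of the 11614 genes entered were as low or lower. Over the 4 Ccn1 probe sets that log2 ratio was -1.39 ± 0.10 (SD over probe sets, which holds no spread between cultures). The name of the probe set used for Ccn1 marks it as able to match further transcripts. All 4 were lower than BRAF-on on ZEB2 also, between -0.50 and -0.28, and on SNAIL2, between -0.58 and -0.35. These differences are smaller than 2-fold. On TWIST1 the probe sets disagreed, with the 2 brightest lower than BRAF-on (to -0.23) and the 2 dimmest higher (to 0.33), so that no direction is given.

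Ccn2 has a single probe set. Its signal was 4224 on BRAF-off, 3534 on BRAF-on, 2918 on ZEB2, 3610 on SNAIL2, 2573 on TWIST1 and 1078 on ZEB1. ZEB1 was again the lowest by far, TWIST1 the next, and SNAIL2 level with BRAF-on. The log2 ratio of ZEB1 to BRAF-on was -1.71 (3.28-fold lower), with 53 of 11614 genes as low or lower, and to BRAF-off it was -1.97. TWIST1 stood at -0.46 against BRAF-on and at -0.72 against BRAF-off, within 2-fold in both. No second probe set was there to repeat these values.

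Ankrd1 encodes a nuclear and sarcomeric ankyrin repeat protein best known in stressed heart muscle, and is a strong YAP target in many cells. Its probe set gave 3524 on BRAF-off, 3802 on BRAF-on, 2523 on ZEB2, 1450 on SNAIL2, 3228 on TWIST1 and 1165 on ZEB1. The second probe set, in the same order of arrays, gave 2476, 3148, 1568, 946, 2567 and 882. Both were thus low on ZEB1 and SNAIL2, intermediate on ZEB2 and near the controls on TWIST1. On SNAIL2 Ankrd1 was the only one of the 8 genes at least 2-fold lower than BRAF-on, with log2 ratios of -1.39 and -1.73, while 6.42% of all 11416 genes were that much lower there and 5.61% higher. With 3-fold as the size that counts, no member was lower on SNAIL2. On ZEB1 the probe sets were at -1.71 and -1.84, and on ZEB2 at -0.59 and -1.01, so that only the second passed 2-fold on ZEB2. Against BRAF-off the probe set used was at -1.28 on SNAIL2 and -1.60 on ZEB1.

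Amotl2, Ajuba and Lats2 encode proteins that act on the Hippo cascade and are at the same time transcribed under YAP. AMOTL2, a member of the motin family at cell junctions, binds YAP in the cytoplasm. Its probe set gave 3268 on BRAF-off, 3071 on BRAF-on, 3044 on ZEB2, 3131 on SNAIL2, 3574 on TWIST1 and 2257 on ZEB1. All but ZEB1 lay close to each other, and the ZEB1 log2 ratio to BRAF-on was -0.44. Ajuba, a LIM-domain protein that holds LATS kinases at junctions under tension, was at 3581, 3522, 2950, 2929, 4801 and 2639 in that order of arrays. It was highest on TWIST1, by a log2 ratio of 0.45, and lowest on ZEB1, at -0.42. Both are within 2-fold.

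Lats2, a kinase gene, had 5 measured probe sets that differed in the size of their ratios. The brightest, whose name marks it as able to match further transcripts, was at 3602, 3062, 3017, 3047, 2932 and 2716 in the order of arrays given for Amotl2. The next was at 2300, 1948, 1821, 1788, 2048 and 1333. On ZEB1 all 5 were lower than on BRAF-on, but by log2 ratios between -0.98 and -0.17, with the brightest at the small end. On ZEB2 and SNAIL2 all 5 were lower too, between -0.50 and -0.02 on the first and between -0.60 and -0.01 on the second. With BRAF activation 3 probe sets were higher and 2 lower, and on TWIST1 2 were higher and 3 lower. For the probe set used, quantile normalization turned the SNAIL2 ratio to 0.01. No Lats2 probe set passed 2-fold in any of these 5 comparisons.

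Yap1 itself gave 3807 on BRAF-off, 4047 on BRAF-on, 3988 on ZEB2, 4675 on SNAIL2, 4265 on TWIST1 and 4508 on ZEB1. Its whole range was 1.23-fold, the narrowest of the 8 genes. On ZEB1, where its targets Ccn1, Ccn2 and Ankrd1 were lowest, Yap1 was at a log2 ratio of 0.16 to BRAF-on, and its second probe set at 0.17. Transcript level says nothing of where the YAP protein lies or how it is phosphorylated, which these arrays do not measure. Tead1 was at 4341, 4606, 4561, 4620, 4743 and 3195 in the same order, near one level on 5 arrays and lower on ZEB1, at -0.53. A dimmer Tead1 probe set was at -0.22 on ZEB1 and at 0.68 on TWIST1, where the brighter one was at 0.04.

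**Figure D2:**
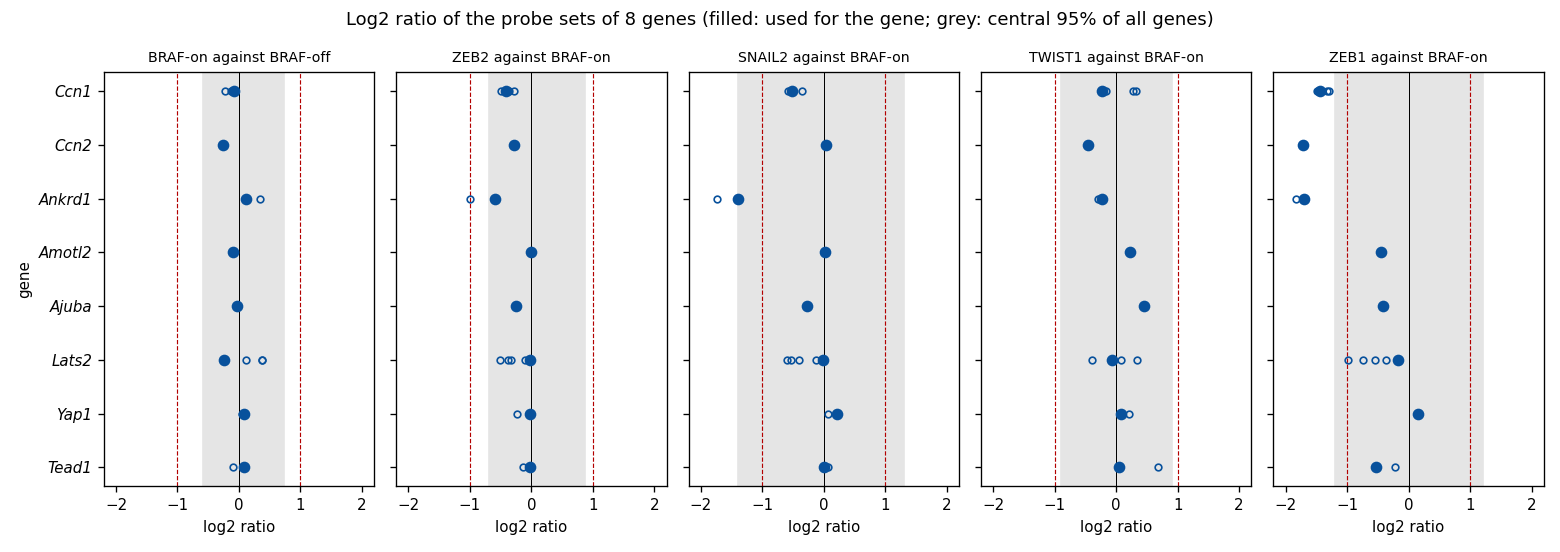
Log2 ratio of each measured probe set of the 8 genes in the 5 comparisons, filled for the probe set used and open for the others, with dashed lines at 2-fold and a grey band for the central 95% of all genes entered. On ZEB1 against BRAF-on the 7 probe sets of Ccn1, Ccn2 and Ankrd1 lie left of the 2-fold line, and those of the other genes lie between the lines.

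BRAF activation alone moved none of the 8 genes by 2-fold. Among all 11200 genes entered, 1.04% were higher by that much and 0.384% lower. The members' log2 ratios of BRAF-on to BRAF-off ran from -0.26 (Ccn2) to 0.11 (Ankrd1), with a median of -0.05, and -0.00 over all genes. Ankrd1 was higher on both probe sets (0.11 and 0.35) and Ccn1 lower on all 4 (-0.22 to -0.06). The central 95% of all genes lay between -0.58 and 0.73, so every member lay within the common run of genes.

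On ZEB2 all 8 genes and all 18 probe sets were below BRAF-on, but none of the 8 by 2-fold, where 0.583% of 11322 genes were, with 1.76% higher. The median was -0.14, beside -0.00 over all genes, and the lowest were Ankrd1 (-0.59), Ccn1 (-0.42) and Ccn2 (-0.28). By the probe sets used, Amotl2, Tead1, Lats2 and Yap1 lay between -0.02 and -0.01, so no direction is read from them. Of all genes entered, 48.7% were as low as Amotl2 or lower. Against BRAF-off, Yap1 and Tead1 were both at 0.07 on ZEB2. Summed melanocyte marker signal was 92874 on BRAF-off, 68406 on BRAF-on, 117912 on ZEB2 and 143398 on SNAIL2. All 10 markers were lower on BRAF-on than on BRAF-off. Against BRAF-off none of the 10 was 2-fold higher on ZEB2, and 3 were on SNAIL2. The part of this signal in the values of the 8 genes on these arrays was not tested. On SNAIL2 the 8 genes split into 4 above and 4 below BRAF-on with a median of -0.00, and only Ankrd1 and Ccn1 (-0.51) were beyond 0.5. The slightly positive SNAIL2 ratios of Ccn2, Amotl2 and Tead1 turned below 0 when arrays were centred on their medians, so these 3 have no direction there. Poly-A controls were also higher on SNAIL2, as given above. Of 7 measured fibroblast markers 1 was called lower there, Dcn at 109 against 444. Of 4 measured macrophage and leukocyte markers 1 was above BRAF-on, Cd68, 2.02-fold higher at 258 against 128, and 3 were below it. The part of these controls and markers in the SNAIL2 ratios was not tested.

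On TWIST1 the group split by gene. Ajuba (0.45) and Amotl2 (0.22) were above BRAF-on and Ccn2 (-0.46) and Ankrd1 (-0.24) below it, and none passed 2-fold, against 2.03% of 11334 genes higher and 2.02% lower. The median was -0.01 over the members and 0.00 over all genes. Of the 18 probe sets, 10 were above BRAF-on and 8 below. Fibroblast markers moved on this array: 9 of 10 were at or above the floor, against 7 on BRAF-on, and 4 were at least 2-fold higher (Fap, Postn, Dcn and Col3a1). Of the 9, 7 were above BRAF-on and 2 below it, Fbln1 at 162 against 190.2 and Col1a2 at 146 against 161. The summed fibroblast marker signal was 17522 on TWIST1 and between 7123 and 9221 on the other arrays. Lum, another marker of that list, was under the floor on all 6. The part of these markers in the TWIST1 values of the 8 genes was not tested.

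On ZEB1, where Ccn1, Ccn2 and Ankrd1 were lower, melanocyte markers were lower too. Of 10, 8 were at least 2-fold lower than on BRAF-on, with a summed signal of 28555 against 68406. On TWIST1 the same sum was 4958, and Ccn1, Ccn2 and Ankrd1 were each higher on TWIST1 than on ZEB1. Keratinocyte markers were near the floor throughout, with at most 2 of 10 at or above it on any array. Macrophage and leukocyte markers had 4 of 10 at or above the floor on both BRAF-on and ZEB1, with Ptprc, Adgre1, Tyrobp, Aif1, Cd14 and Itgam under it. All 4 were higher on ZEB1 than on BRAF-on, 1 of them by 2-fold, Cd68 at 466 against 128. Against BRAF-off Cd68 and Fcer1g were at least 2-fold higher on ZEB1. Endothelial markers had 3 of 8 at or above the floor on both BRAF-on and ZEB1. Of these, Cdh5 was 2.14-fold higher on ZEB1, at 189 against 88.3. Pecam1 was under the floor on all 6 arrays. Of the 8 fibroblast markers measured in this comparison, 7 were above BRAF-on and 2 were at least 2-fold higher, Fap at 288 against 80.6 and Pdgfra at 136 from under the floor. Mki67, a proliferation marker, was at 7677 on BRAF-off, 7199 on BRAF-on, 7911 on ZEB2, 2107 on SNAIL2, 5422 on TWIST1 and 1357 on ZEB1. The part of these markers in the ZEB1 values of the 8 genes, and of Mki67 in the SNAIL2 values, was not tested. In bulk RNA a lower share of cells with a transcript and less of it per cell cannot be told apart.

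The factor arrays were also set against BRAF-off in place of BRAF-on. On ZEB1 Ccn2 was 3.92-fold, Ankrd1 3.02-fold and Ccn1 2.89-fold lower, 3 of 8, where 5.20% of 11508 genes were 2-fold lower and 7.06% higher. On SNAIL2 Ankrd1 was 2.43-fold lower, 1 of 8, where 5.31% of 11149 genes were lower. None passed 2-fold on ZEB2, where 0.325% of 11088 genes were lower and 1.02% higher, and the nearest were Ccn2 (-0.53), Ccn1 (-0.50) and Ankrd1 (-0.48). None did on TWIST1 either, where 2.61% of 11132 genes were lower and 3.11% higher, with Ccn2 at -0.72 and Ajuba at 0.42.

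The rest of the pathway was read from lists of other genes. The Hippo kinases and their inputs had 19 measured genes of 21 listed. On ZEB1 none was 2-fold from BRAF-on, with 8 above and 11 below and a median log2 ratio of -0.03. Mob1b, which encodes a LATS activator, was lowest at -0.94, but its second probe set was at 0.13. On SNAIL2 17 of 19 were above BRAF-on, with a median of 0.30 beside 0.06 over all genes. Against BRAF-off only 12 of 19 were above 0 on SNAIL2, with a median of 0.13 beside 0.10 over all genes. Stk4, which encodes the MST1 kinase at the top of the cascade, was at 0.96 on SNAIL2 against BRAF-on. Its 3 probe sets ran from -0.01 to 0.96. The kinase gene Taok1 was the 1 member at least 2-fold lower on SNAIL2 (-1.13), and its 6 probe sets were all below 0, from -1.13 to -0.20. On TWIST1 the atypical cadherin gene Fat4 was 2.28-fold higher, at 1241 against 543, and its second probe set was at 1.36. With BRAF activation 16 of 19 were below 0 with none past 2-fold. The median was -0.11, but 0.02 when each gene was given the median of its probe sets. On ZEB2 none was past 2-fold.

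Partners of YAP and TEAD had 6 measured genes of 8. None was 2-fold from BRAF-on on any of the 4 factor arrays by the probe set used. Wwtr1, which encodes TAZ, was at 4193 on BRAF-off, 4552 on BRAF-on, 4646 on ZEB2, 4208 on SNAIL2, 5288 on TWIST1 and 5557 on ZEB1. It was thus highest on ZEB1, and its 3 probe sets were all above BRAF-on there, by 0.29 to 0.55. Vgll3, which encodes a TEAD cofactor, was at 5811, 4609, 4352, 3409, 7514 and 2842 in that order, with its lowest signal on ZEB1. Its 3 probe sets were all higher on TWIST1 (0.60 to 0.93) and all lower on ZEB1 (-1.59 to -0.70). Against BRAF-off the Vgll3 probe set used was 2.04-fold lower on ZEB1, 1 of 6 partners, where 5.20% of all genes were 2-fold lower. No partner was called against BRAF-off on the other factor arrays. Tead4 was at -0.98 on ZEB1, with a signal of 147 against 290.

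Other known YAP and TAZ targets went both ways on ZEB1. Of 18 listed, 16 were measured there, 3 were called higher and 1 lower. The median was 0.07, as over all genes. The higher ones were Ccdc80 (1.62), Nt5e (at least 1.45, from a signal under the floor on BRAF-on) and Gadd45a (1.38), a growth arrest gene that also responds to p53. The lower one was Birc5 (-1.05), which encodes the mitotic protein survivin. Axl, a receptor kinase gene much used as a YAP target, was at 7436 on ZEB1 and 7094 on BRAF-on. On SNAIL2 Igfbp3 (-1.16) and Gadd45a (-1.05) were at least 2-fold lower, and on TWIST1 Nt5e (at least 1.85) and Ccdc80 (1.37) were higher. With BRAF activation Ccdc80 was lower (-1.03), and on ZEB2 none of 15 passed 2-fold. Against BRAF-off, Ccdc80 was within 2-fold on ZEB1 (0.59) and TWIST1 (0.34). On ZEB1 Gadd45a (1.76), Nt5e (at least 1.45) and Fjx1 (at least 1.17) were higher than BRAF-off and Birc5 (-1.04) lower. On TWIST1 Nt5e (at least 1.85) and Gadd45a (1.02) were higher than BRAF-off. On SNAIL2 Igfbp3 (-1.06) and F3 (-1.05) were 2-fold lower than BRAF-off, and Gadd45a (-0.675) was within 2-fold.

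Targets of SRF and its cofactors MRTF respond to actin tension, as YAP does, and include smooth muscle genes. On ZEB1 14 of 16 measured were below BRAF-on with a median of -0.20, and Tagln (-2.52) and Acta2 (-1.38) passed 2-fold. Cnn1 was under the floor on ZEB1 and at 126 on BRAF-on, less than 2-fold above the floor, so it could not be called. Against BRAF-off 11 of 16 were below 0 on ZEB1, with a median of -0.17. Tagln (-3.13) and Acta2 (-1.50) were again lower, and the dim Tpm2 (1.51) was higher, at 194 against 68.3. On TWIST1 14 of 16 were above BRAF-on with a median of 0.14, and Cnn1 (2.62), Tagln (2.04) and Acta2 (1.80) passed 2-fold. Tagln was at 2441 on BRAF-off, 1596 on BRAF-on, 897 on ZEB2, 958 on SNAIL2, 6564 on TWIST1 and 278 on ZEB1. It thus shared its lowest array with Ccn1, Ccn2 and Ankrd1, whereas on TWIST1 those 3 genes were not 2-fold from BRAF-on. Myl9, a myosin light chain gene, was at least 2-fold lower than BRAF-on on ZEB2 (-1.76) and SNAIL2 (-2.11). Against BRAF-off Myl9 and Tagln were both called lower, on ZEB2 (-1.55 and -1.44) and on SNAIL2 (-1.90 and -1.35).

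**Figure D3:**
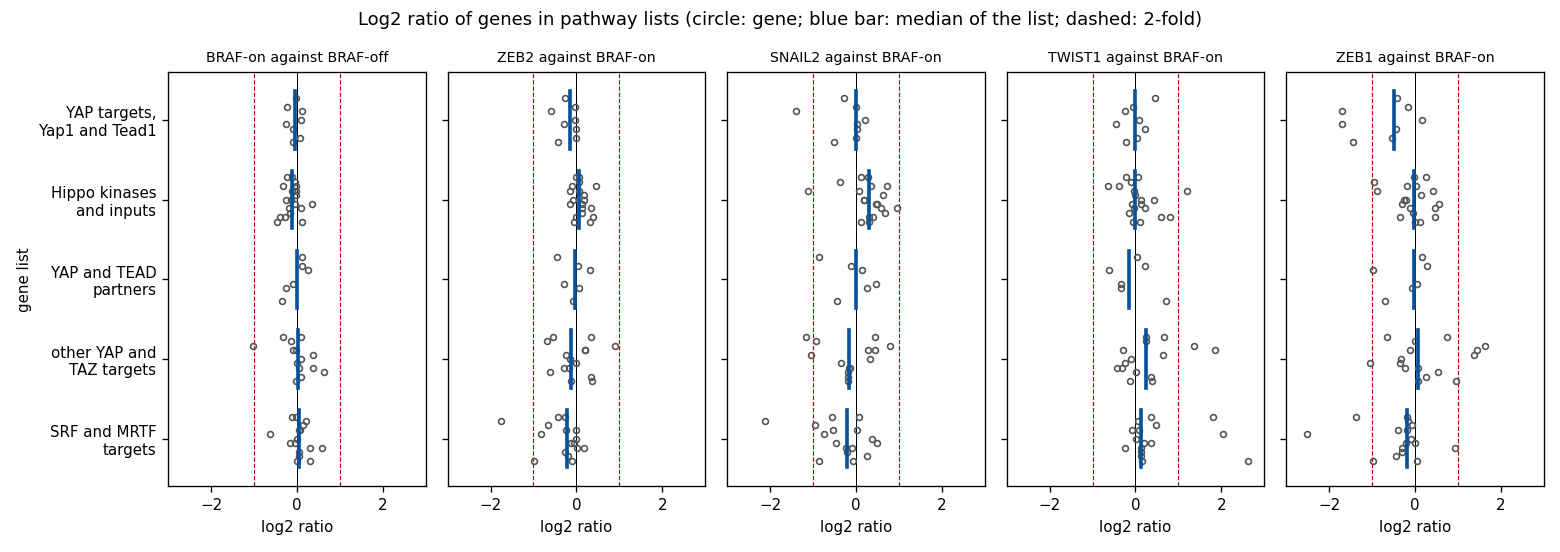
Log2 ratios of the measured genes in 5 lists for the 5 comparisons, with a circle per gene, a blue bar for the list's median and dashed lines at 2-fold. On ZEB1 against BRAF-on the median of the 8 genes lies at -0.49, that of the SRF and MRTF targets at -0.20 and those of the other lists between -0.03 and 0.07.

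No relative of the members in the CCN and Ankrd1 families was 2-fold lower on ZEB1 than on BRAF-on, but only Ccn4 could have been called so. Ccn3, Ccn5, Ccn6 and Ankrd2 were under the floor on BRAF-on, and Ankrd23 was less than 2-fold above it. Of the other CCN genes, Ccn4 was at 2142 on ZEB1 against 2538 on BRAF-on, a log2 ratio of -0.24. Ccn5 was at least 3.18-fold higher there, at 202 against a signal under the floor. Ccn3 was under the floor on BRAF-on and at or above it on ZEB1, and Ccn6 was under it on both. Ankrd23, a relative of Ankrd1, was 3.27-fold higher on ZEB1, at 327 against 100, which is dim. Ankrd2, also dim, was at 132 on BRAF-off, 150 on ZEB2 and 203 on SNAIL2, and under the floor on BRAF-on, TWIST1 and ZEB1. Each of these last arrays was thus at least 2.08-fold lower than BRAF-off for Ankrd2.

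Genes with the pattern most like Ccn1 and Ccn2 were sought by Pearson's r of log2 signals over the 6 arrays, among 3227 genes at or above the floor on all 6 and varying at least 2-fold. For Ccn1 they were Dis3 (0.994), Orc2 (0.993), Lrr1 (0.992), Haus8 (0.990) and Neil3 (0.984). For Ccn2 they were Anapc15 (0.995), Exo1 (0.991), Orc1 (0.990), Rrm2 (0.990) and Tk1 (0.988). All 10 had their lowest signal on ZEB1, which mostly follows from choosing them by likeness to Ccn1 and Ccn2, both lowest there. With 6 points, 1 of them far from the rest, and this many genes ranked, such values are a description of shared arrays. Between themselves Ccn1 and Ccn2 had an r of 0.918, Ccn1 and Ankrd1 0.899, and Ccn2 and Ankrd1 0.661. Yap1 had a negative r with each of the other 7 genes, but its signals spanned only 1.23-fold. The Yap1 probe set used was highest on SNAIL2 and lowest on BRAF-off, and the second was highest on TWIST1 and lowest on ZEB2. No inverse relation is read from these values.

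**Figure D4:**
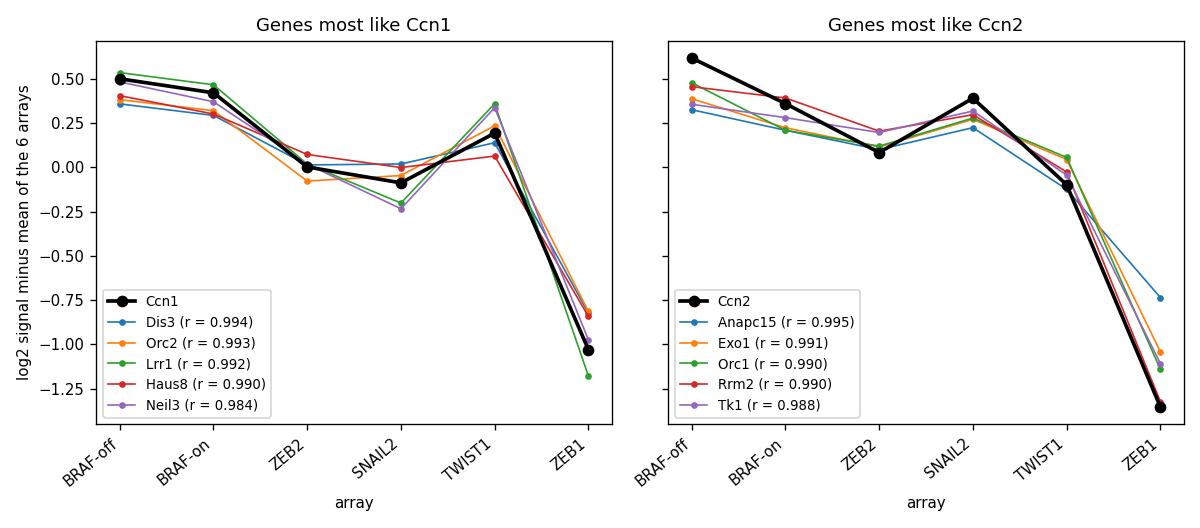
Log2 signal minus the mean of the 6 arrays for Ccn1 and Ccn2 (black) and the 5 genes most like each (coloured, with Pearson's r over 6 arrays), and lines that only join the points of a gene. Every line has its lowest point on ZEB1, which for the coloured lines mostly follows from how the genes were chosen.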

How the data were processed

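Melan-a total RNA, 1 sample per group, was amplified from its 3' end and read on 6 Affymetrix mouse arrays of 1 colour, per the labels' protocols. The authors deposited linear signal intensities, and the submitters' processing notes name the MAS5 method and Expression Console 1.1. All arrays had the same trimmed mean (500.0 with 2% left out at each end), so they were used without further scaling. Detection calls were not used here.

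Of 45101 probe sets, 64 were controls. Of the rest, 34945 have 1 gene in the platform annotation and were used, and 932 with several genes and 9160 without one were not. Symbols were updated through Entrez numbers in a RefSeq table of GRCm38.p6, which held 34741 of the 34945. Where a gene had several, the one of highest mean log2 signal stood for it. Values under the floor of 63.7 were raised to it, and a gene entered a comparison with at least 1 array at or above the floor. The calling of ratios was checked on simulated arrays. The 9 alternatives covered normalization, floor, probe set and fold, and the comparisons of factors with BRAF-off under them were added after seeing the data.

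The members and lists were chosen with earlier results of these data known. Named from the lists were genes at least 2-fold apart, up to 4 per comparison and direction, or else up to 2 by size. The 5 genes most like Ccn1 and Ccn2 were named too. Cd68, Cdh5, Mki67, the fibroblast markers, Stk4, Wwtr1, Vgll3 on TWIST1, Axl and the relatives within 2-fold are not covered by that rule. Cnn1 on ZEB1 is not covered either. All of these were chosen with their values in view. Python 3.11.15, numpy 2.4.6 and pandas 2.3.3 were used.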

Additional observations from a re-analysis of the deposited data

How the results depend on the processing

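Of 162 recomputed counts of members at least 2-fold apart, over 9 comparisons, 2 directions and 9 alternatives, 160 stayed within 1.5 times the value reported. The other 2 came from 3-fold as the size that counts. That setting took the lower members on SNAIL2 from 1 to 0, both against BRAF-on and against BRAF-off, since Ankrd1 was 2.62-fold and 2.43-fold lower. On ZEB1 it left 2 of the 3 lower members, Ccn2 and Ankrd1. Over the 8 alternatives that give a log2 ratio, none of 576 ratios of members moved across 2-fold. Ratios near 0 changed sign in some of them, among them Lats2 with BRAF activation (-0.24 to 0.25 over all settings) and Ccn1 on TWIST1 (-0.23 to 0.08). The median of the 8 genes on ZEB1 stayed between -0.56 and -0.47. No paired analysis was possible because each group has 1 array and no result comes from a test. No replicate could be left out for the same reason. Signals of the 8 genes lay well over the floor, so dimness limits only the lesser probe sets of Lats2 and Tead1.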
